A study of Mus musculus with 8 samples.

Results

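Later erythroid progenitors with a high globin content were examined in mouse bone marrow. These cells were selected on their own counts of unique molecular identifiers (UMIs, each standing for 1 captured RNA molecule): 2 or more UMIs of Klf1, 2 or more of Car1, under 3 of Pf4, and 20 or more UMIs of Hba-a1, Hba-a2, Hbb-bs and Hbb-bt together per 10000 UMIs of the cell. Of 46159 cells with 1000 or more UMIs and under 10% of UMIs in mitochondrial genes, 245 met these limits, or 0.531%. They are called later cells here, and the other 10115 cells that passed the limits on Klf1, Car1 and Pf4 with less globin are called early erythroid cells. Lineage-negative c-Kit+ cells were profiled in 8 libraries, each from 1 wild-type mouse, so that the spread between libraries is a spread between mice. The mice were a male and a female of 14 weeks (young), of 50 weeks (middle-aged), of 78 and 79 weeks (old, the male being the younger) and of 95 weeks (very old). The comparison of ages was intended to show how blood-forming progenitors change over the lifespan. By their labels, the libraries of both very old mice belong to a series of their own, which therefore cannot be told apart from very old age.

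Red cells are made from progenitors that pass through a fixed order of states while they divide. KLF1, together with GATA1, switches on the genes of the red cell membrane, haem synthesis and globin. KIT, the receptor for stem cell factor, is lost as cells move towards dependence on erythropoietin, and α- and β-globin chains then accumulate as the cells become erythroblasts. A sort for c-Kit protein without lineage markers takes the start of this path and leaves out the cells beyond it.

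The 4 globin genes that defined the cells are shown by the 120 bases before their RefSeq start (GRCm38.p6), since they set the order of the cells described below. Capitals mark matches, on either strand, to the CACCC box bound by KLF1, to the CCAAT box, to a GATA motif spelled GATAA and to a TATA motif spelled ATATAA. Hba-a1 lies at chr11:32283552-32283671 (+), Hba-a2 at chr11:32296372-32296491 (+), Hbb-bs at chr7:103827929-103828048 (-) and Hbb-bt at chr7:103813924-103814043 (-).
Hba-a1: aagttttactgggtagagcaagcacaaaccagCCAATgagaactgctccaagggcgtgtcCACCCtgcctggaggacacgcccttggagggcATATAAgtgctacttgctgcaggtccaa
Hba-a2: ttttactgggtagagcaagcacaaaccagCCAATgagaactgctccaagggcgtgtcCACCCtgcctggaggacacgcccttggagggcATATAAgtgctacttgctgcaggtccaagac
Hbb-bs: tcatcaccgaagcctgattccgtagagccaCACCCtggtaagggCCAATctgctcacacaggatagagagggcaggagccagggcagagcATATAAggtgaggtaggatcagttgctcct
Hbb-bt: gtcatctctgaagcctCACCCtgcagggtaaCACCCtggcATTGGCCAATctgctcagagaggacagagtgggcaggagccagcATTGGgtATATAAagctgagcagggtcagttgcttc

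All 4 windows held the CACCC box, the CCAAT box and the TATA motif, and none held the GATA motif. Among 32851 RefSeq promoters, the same 120 bases held the CACCC box in 31.7%, the CCAAT box in 21.3%, the TATA motif in 4.47% and the GATA motif in 10.5%. Hbb-bt held 2 CACCC and 3 CCAAT matches, of which a pair lay back to back without overlap. The windows of Hba-a1 and Hba-a2 are the same sequence shifted by 3 bases, since the RefSeq starts differ, and those of Hbb-bs and Hbb-bt were 74.6% identical when aligned end to end. The transcripts of Hba-a1 and Hba-a2 were 99.8% identical over 538 aligned positions, so the split of UMIs between these near-identical copies is uncertain. Hbb-bs and Hbb-bt transcripts were 93.0% identical over 618 positions. The sum over the α pair and the sum over the β pair do not depend on how reads were shared within a pair.

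Later cells were found in 5 of the 8 mice, and 239 of the 245 (97.6%) came from 3 of them. The young female held 64 later cells among 7068 cells, the very old male 87 among 5562, and the very old female 88 among 7265. The middle-aged female and the old female held 3 each, among 4912 and 6036 cells. None was found among 5109 cells of the young male, 4989 of the middle-aged male and 5218 of the old male, which allows shares of up to 0.0587%, 0.0601% and 0.0575% when a count of 0 is taken as under 3 cells. The very old mice lay above all others in this share, while the young, middle-aged and old mice overlapped, and the 2 young mice were far apart. Intervals and limits given here cover counting error only.

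As a percent of erythroid cells (later and early together), the later cells made up 2.93% in the young female (95% exact Clopper-Pearson interval 2.27 to 3.73), 4.85% in the very old male (3.90 to 5.95) and 4.74% in the very old female (3.82 to 5.80). The middle-aged female had 0.294% (0.0606 to 0.855) and the old female 0.366% (0.0756 to 1.07). The 3 males without later cells had 1171, 786 and 729 erythroid cells, which allows up to 0.256%, 0.382% and 0.412% by the same limit of 3 cells, and up to 0.315%, 0.468% and 0.505% by the exact interval drawn in the plot of shares. The 2 very old mice lay above both young mice in this share, at 4.79% ± 0.0801 (SD, n = 2) against 1.47% ± 2.08 (SD, n = 2). Old and very old mice together averaged 2.49% ± 2.67 (SD, n = 4), a difference from young of 1.02 percentage points (exact two-sided permutation test, p = 0.533, where 0.0667 is the smallest p this design allows). Over all cells the same difference was 0.254 percentage points (exact permutation test, p = 0.6). It was -0.199 without the young male and -0.0324 without the very old male, so 1 mouse decided its direction, and the difference among erythroid cells was -0.446 without the young male.

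**Figure D1:**
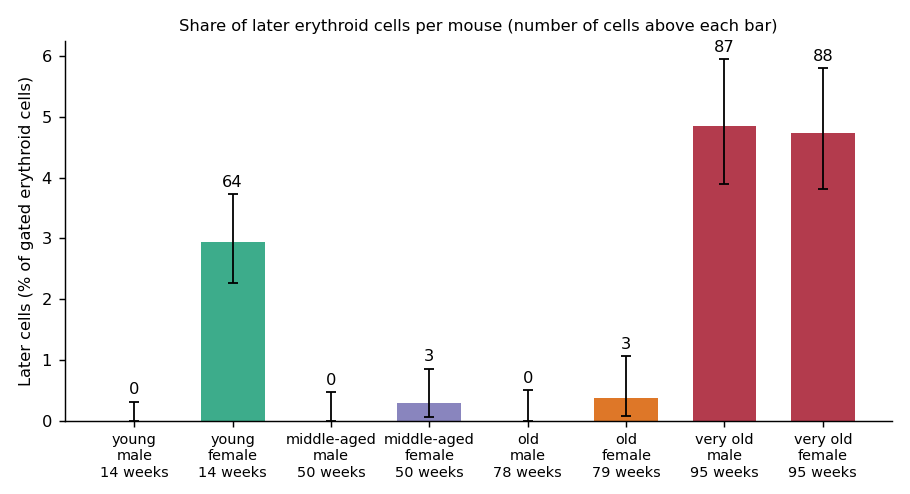
Bars give later cells as a percent of gated erythroid cells in each of the 8 mice, with 95% exact Clopper-Pearson intervals as error bars and the number of later cells above each bar. The young female and both very old mice sit between 2.93% and 4.85%, and the other 5 mice between 0 and 0.366%.

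The lower range of globin, the measure that chose the cells, is given as a description. Globin UMIs at 1 or more per 10000 were found in 39.5% of erythroid cells of the young female, 40.7% of the very old male and 43.6% of the very old female. The other mice had 9.91% (young male), 7.83% (middle-aged female), 7.33% (old female), 6.58% (old male) and 5.09% (middle-aged male). Globin in cells that should lack it was far lower. Mpo encodes a granule enzyme of neutrophil precursors. Cells with 10 or more UMIs of Mpo and no UMI of Klf1 or Car1 held 0.0123 to 0.109 globin UMIs per 10000 on average. None of them reached 20 in the 8 libraries. Their median depth was 15430 to 25230 UMIs, against 26721.5 to 35269 in the later cells of the 3 mice that held most of them. Among all cells that failed the limits on Klf1, Car1 and Pf4, 49 reached 20 globin UMIs per 10000. These included 5 in the young male, 3 in the middle-aged male and 3 in the old male.

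**Figure D2:**
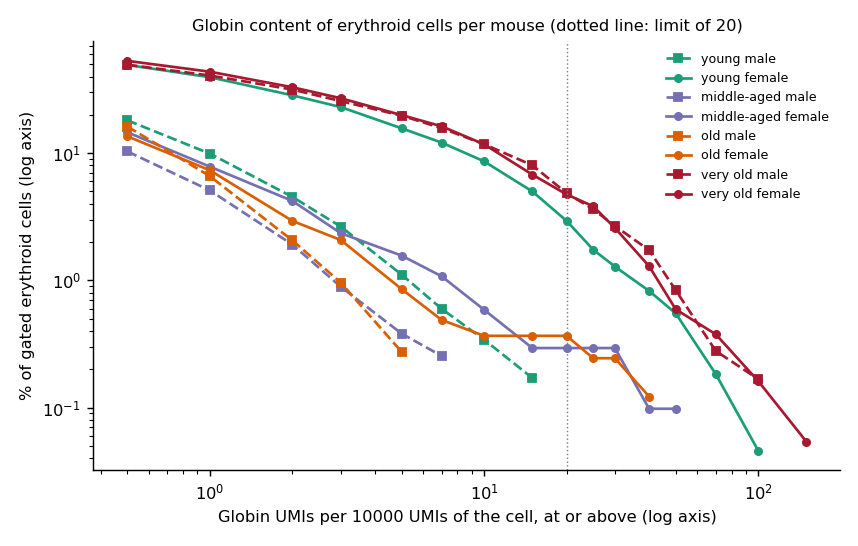
Lines show, for each mouse, the percent of gated erythroid cells (log axis) at or above each globin content (UMIs per 10000, log axis), and the dotted line marks the limit of 20. The young female and both very old mice lie above the other 5 mice from 0.5 to 100, and at 30 the young female (1.28%) lies below the very old male (2.68%) and very old female (2.58%).

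Red cell genes outside the rule were also compared between the mice, as a description. The sum of 41 genes of haem synthesis and of the red cell membrane and skeleton had a median of 85.9 per 10000 non-globin UMIs over the later cells. Erythroid cells at or above that level numbered 78 in the young female, 62 in the very old male and 87 in the very old female. The other mice held 4 (young male), 4 (middle-aged female), 1 (old female), 0 (middle-aged male) and 0 (old male). The globin rule sets these counts in part, since the level is a median of the later cells. Early erythroid cells among them numbered 41, 23 and 43 in the 3 mice with most later cells, 4 in the young male, 2 in the middle-aged female and 0 in the other 3. In the 3 mice with most later cells, 47.4%, 62.9% and 50.6% of these cells were later cells by the globin rule, and 98.7%, 96.8% and 98.9% carried a globin UMI. All 4 such cells of the young male carried globin too, at a median of 6.18 per 10000. Over all early erythroid cells the median of the sum was 41.6, 46.6 and 46.3 in those 3 mice and 25.8 to 29.8 in the other 5. Erythroid cells as a whole were also a larger part of the cells in the 3 mice with most later cells, at 30.9%, 32.3% and 25.6%, than in the other 5, at 13.6% to 22.9%. How the sort passed cells with falling c-Kit in each mouse was not tested.

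Red cell markers outside the rule were present in the later cells. Values for genes are from here on counts scaled to 1000000 non-globin UMIs (CPM), in the order young female, very old male, very old female. Rhd, a carrier of the Rh blood group antigen, was at 637, 530 and 501, and was detected in 98.4%, 100% and 100% of later cells. Epor, the erythropoietin receptor, was at 131, 140 and 137. Kit was at only 17.0, 15.1 and 16.8, and 33.3% to 37.5% of later cells had a UMI of it. Genes of more mature erythroblasts were barely present: Alas2, the first enzyme of haem synthesis in red cells, was at 6.89, 5.03 and 10.9, and Slc4a1, the band 3 anion exchanger, was detected in 14.1%, 6.90% and 26.1% of later cells. Embryonic globins were absent or at 1 UMI per library (Hba-x at 0, 1 and 1 and Hbb-y at 0, 1 and 0 UMIs).

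Markers of other cell types were low, with 1 exception. Of the 18 lymphoid markers 10 were at 0 in the later cells of all 3 mice, as were 7 of 14 basophil and mast cell markers, 8 of 17 macrophage and stroma markers, 3 of 18 megakaryocyte markers and 2 of 20 neutrophil and monocyte markers (Ngp and Camp). The summed neutrophil and monocyte markers were at 190, 65.7 and 659, against 759, 334 and 469 in early erythroid cells. The very old female stood out, and without the 3 of its later cells that held 10 or more other-lineage UMIs per 10000 the sum was 78.5. Other-lineage UMIs include those of the neutrophil and monocyte markers, so leaving these cells out lowers the sum by itself. In all, 5 of the 245 later cells held 10 or more other-lineage UMIs per 10000. Early erythroid cells held more of such cells, and unevenly between the mice. Leaving them out took the erythroid cells, later and early together, from 2181 to 1788 in the young female. The very old male went from 1794 to 1634 and the very old female from 1858 to 1736. The early cells that later cells are compared with below include them. Cells rich in other-lineage markers were left out only where stated, and no cells were removed as doublets. Between 6 and 27 barcodes were shared by pairs of libraries, and 2 later cells had a barcode that also occurred in another library.

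Later cells differed from the early erythroid cells of the same mouse in the genes below. The globin limit chose these 2 sets, so the differences are a description and were not tested. A gene is counted as higher or lower when it differed by 1.5-fold or more in the same direction in each of the 3 mice. Of 6593 genes with a mean of 10 CPM or more, 235 (3.56%) were higher and 323 (4.90%) lower by that count. At the limit itself the steps were small: cells at 15 to 20 globin UMIs per 10000, just outside, had Rhd, scaled here to all UMIs, at 588, 489 and 447, and cells at 20 to 25, just inside, at 613, 455 and 475.

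Haem synthesis genes were higher in later cells, with 12 of 15 counted as higher, 0 as lower and a median log2 difference of 0.84 (all genes, -0.06). Tmem14c, needed for import of the haem precursor into mitochondria, was at 1518, 1532 and 1502 in later and 737, 826 and 768 in early cells. All 3 mice were higher in later cells, 1.95-fold on average (log2 0.97 ± 0.08, SD over 3 mice). Alad, an early enzyme of the pathway, was 1.80-fold and Cpox, a later one, 1.68-fold higher. Urod, Uros, Ppox, Fech, Slc25a38, Abcb10, Abcb6 and Hebp1 were also counted as higher.

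Of 22 genes of the red cell membrane and skeleton 11 were higher and none lower, with a median log2 difference of 0.73. Rhd, at 285, 280 and 247 in early cells, was 2.04-fold higher (log2 1.03 ± 0.12), and its partner Rhag 1.85-fold. Cd24a, a small surface glycoprotein, was 2.13-fold higher. Sptb, Ank1 (ankyrin), Epb42, Dmtn, Mpp1 and Gypc were also counted as higher, so that both membrane proteins and their skeletal anchors were higher.

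The erythroid enzymes gave 6 higher of 17. Prdx2, the main peroxiredoxin of red cells, was at 2410, 2643 and 2416 in later against 1299, 1570 and 1361 in early cells. Blvrb was 1.59-fold, Nxpe2 1.88-fold and Trim10 3.56-fold higher. Of 19 iron genes 2 were higher: Slc25a37 (mitoferrin), which carries iron into mitochondria, by 2.46-fold, and Fth1 (ferritin heavy chain) by 1.60-fold. Ftl1 and Glrx5 differed by 1.45-fold and 1.42-fold, below the limit.

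Among 26 erythroid transcription factors 3 were higher, 3 lower and 20 neither. Sox6, a partner in definitive globin switching, was at 27.5, 30.2 and 48.8 in later against 7.30, 7.20 and 8.18 in early cells, and E2f2 and Klf13 were the others higher. Myb, which keeps progenitors immature, was at 82.6, 83.5 and 62.7 against 266, 276 and 259. Gata2, the factor that GATA1 replaces, was 7.38-fold lower, at 5.05, 3.02 and 2.95 in later cells. Cbfa2t3 was 2.76-fold lower. Gata1 itself was 1.22-fold higher, below the limit.

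Receptor and cell cycle genes also differed. Kit was 4.41-fold lower than in early cells (75.1, 73.3 and 77.3 there), and Igf1r 1.64-fold lower. Epor was 1.33-fold higher, below the limit. The D cyclins differed in opposite directions: Ccnd3 was at 367, 275 and 310 in later against 105, 80.4 and 83.6 in early cells, while Ccnd2 was 7.94-fold lower, at 9.64, 6.70 and 9.26. Cdk6 was 2.15-fold lower, and the CDK inhibitor Cdkn2c 2.07-fold higher. Of 43 S phase genes 8 were higher and 0 lower (median log2 0.46), among them Rrm2 (2.07-fold), Slbp, Pcna and Rrm1. Of 51 genes of G2 and M phase 12 were higher and 0 lower (median log2 0.53), with Mki67 at 615, 720 and 757 in later and 372, 356 and 415 in early cells.

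Lower groups were of other kinds. Of 23 ribosome biogenesis genes 3 were lower and none higher, with a median of -0.53, and Myc, a driver of ribosome production, was at 47.7, 58.0 and 55.5 against 105, 96.4 and 106. Of 14 genes of MHC class I and antigen processing 7 were lower, including H2-K1 (1.75-fold), H2-Q7 (2.78-fold), Psmb8 (6.87-fold) and Psmb10 (1.95-fold). The 7 also include H2-Ab1, which is an MHC class II gene. The 15 interferon response genes gave 6 lower (Ifitm1, Ifitm2, Bst2, Psmb8, Psmb9 and Tap1), of which 3 also stand in the MHC list. Of 24 actin cytoskeleton genes 9 were lower, including Actg1 (1.88-fold) and Tmsb10 (4.03-fold). Of 14 glycolysis genes 4 were lower, Ldha, Gpi1, Pgam1 and Pkm. None of 22 oxidative phosphorylation genes and none of 15 heat shock genes passed the limit either way, with medians of 0.03 and -0.20.

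The remaining lists gave few. Antioxidant genes had 1 higher (Gclc) and 2 lower (Mt1 and Prdx6) of 19. The unfolded protein and integrated stress list had 1 higher of 15, Eif2ak1, the haem-regulated kinase of eIF2α, at 1.60-fold. Of 10 genes of erythropoietin and stem cell factor signalling only Gab1 was higher, and of 9 p53 targets only Btg2, an antiproliferative gene, at 4.40-fold. The 7 immediate early genes had Btg2 higher and Myc and Ier2 lower. None of 13 DNA methylation and Polycomb genes passed. Of 5 stem cell markers measured, Pdzk1ip1 was higher and Ifitm1 lower. The extremes, chosen after their values were seen, were Acp5, an acid phosphatase (6.35-fold higher), and Apoe, a lipid carrier (23.5-fold lower, at 12.9, 13.4 and 7.57 in later and 421, 208 and 252 in early cells).

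**Figure D3:**
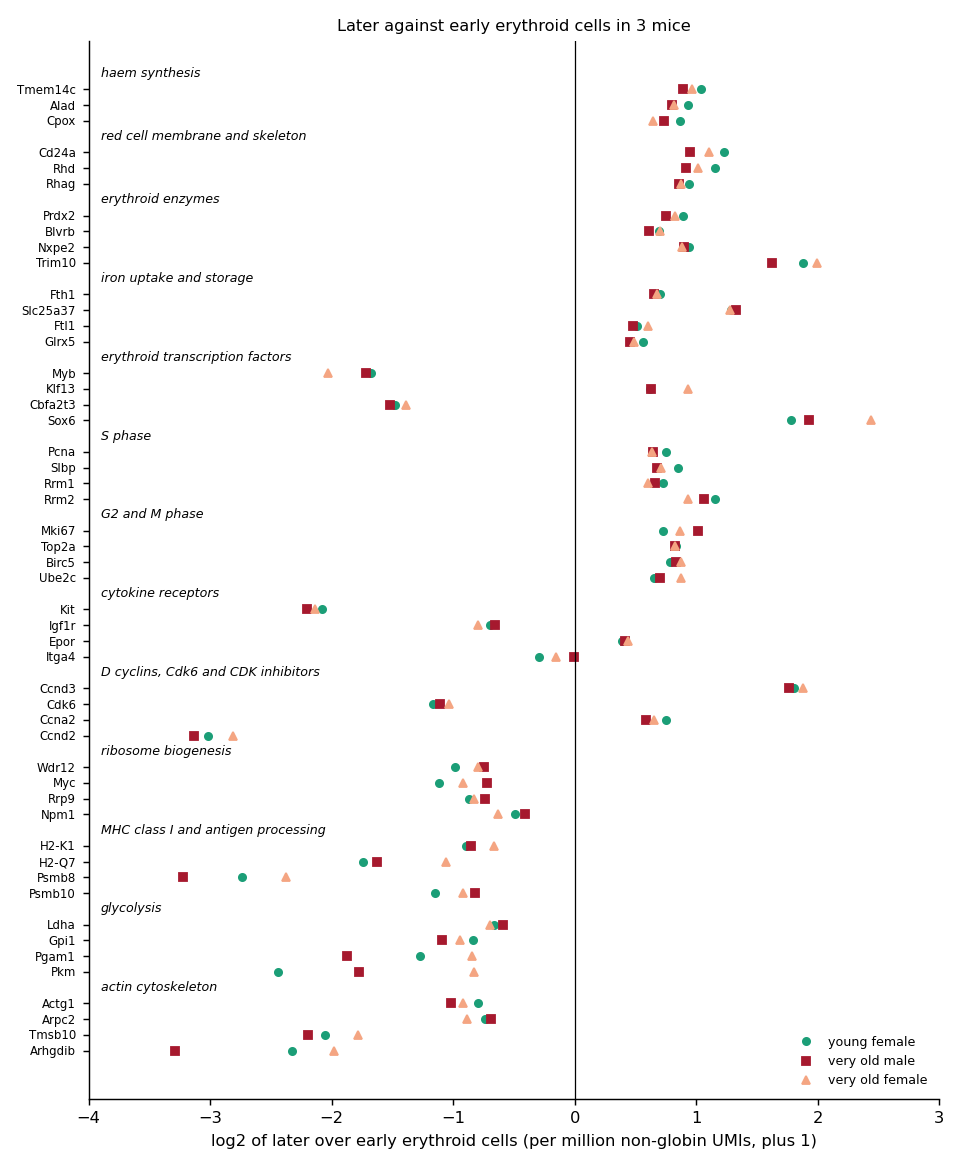
Points give the log2 ratio of later over early erythroid cells (CPM plus 1) in the young female (circles), very old male (squares) and very old female (triangles), for up to 4 genes of each of 13 lists. Red cell genes and Ccnd3 lie to the right of 0 and Kit, Ccnd2, Myb and Tmsb10 to the left in each of the 3 mice, as with Rhd at 1.03 ± 0.12 and Kit at -2.14 ± 0.06.

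Within the later cells the 3 mice were also divided by globin content into 20 to 30, 30 to 50 and 50 or more UMIs per 10000. These held 36, 16 and 12 cells in the young female, 39, 33 and 15 in the very old male, and 40, 37 and 11 in the very old female. Few genes differed 1.5-fold along this range in every mouse. Of 2502 genes with a mean of 50 CPM or more, 2 (0.0799%) were higher and 4 (0.160%) lower at 50 or more than at 20 to 30. The higher ones were Fam117a, at 74.8, 50.9 and 55.7 in the lowest and 131, 82.9 and 127 in the highest range, and Kif23, a kinesin of cell division (1.75-fold). The lower ones were Nol11 (2.09-fold) and Pum3 (1.99-fold), both proteins of the nucleolus, Polr2h, a subunit shared by the RNA polymerases (1.85-fold), and Nfe2l2, the antioxidant factor NRF2 (1.61-fold). All 4 were below the level of the 20 to 30 range in each mouse. None of 12 haem synthesis genes and none of 18 membrane genes passed, with medians of 0.21 and 0.14 against -0.03 over all genes. Ribosome biogenesis genes had a median of -0.33 with none of 14 past the limit. Cells just below the globin limit, at 10 to 20, numbered 124, 124 and 130.

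Across single later cells the red cell list (haem synthesis and membrane genes) was higher with more globin, with Spearman correlations of 0.44, 0.39 and 0.53 over 64, 87 and 88 cells. The ribosome biogenesis sum was lower with more globin, at -0.43, -0.40 and -0.34. The cells of a mouse share a library and differ in depth (10283 to 44460 UMIs in the very old female, and a wider range in the other mice), and the values are descriptions.

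The make-up of the globin UMIs differed from their amount. α-globin (Hba-a1 and Hba-a2) made up 46.9% of the globin UMIs of later cells in the young female (exact interval 45.8 to 48.0), 32.9% in the very old male (32.1 to 33.8) and 37.4% in the very old female (36.4 to 38.4). These intervals count each UMI as independent and leave out the spread between cells, so they are too narrow for comparing mice. The sum of these globin genes also chose the cells, and the shares are a description. In early erythroid cells the α share was 61.2%, 47.5% and 53.7%. In each mouse the later cells thus held a larger part of β-globin. From 20 to 30 up to 50 or more globin UMIs per 10000 the α share was 52.9%, 42.8% and 43.2% in the young female. It was 39.2%, 32.7% and 27.5% in the very old male, and 38.5%, 39.0% and 32.7% in the very old female. The 3 later cells of the middle-aged female had 48.6% and the 3 of the old female 20.2%.

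Both very old mice had a lower α share than the young female in later cells and in early cells. With 2 mice against 1 this difference was not tested. The early cells of the other mice had 55.5% (young male), 53.2% (middle-aged male), 37.4% (old male), 51.9% (middle-aged female) and 52.5% (old female). The early value of the very old female, 53.7%, lay inside the range of the rest. That of the very old male, 47.5%, lay inside it only through the old male. Early cells of the old male held only 0.305 globin UMIs per 10000. The young female, very old male and very old female had 2.34, 2.52 and 2.34. Within the β pair, Hbb-bs gave 48.2% of UMIs in the young female, 57.2% in the very old male and 51.6% in the very old female. Within the α pair, Hba-a1 gave 80.6%, 77.8% and 79.6%. Per 10000 UMIs, Hba-a1 was at 13.2, 9.73 and 11.0 and Hba-a2 at 3.18, 2.78 and 2.82. Hbb-bs was at 8.93, 14.6 and 11.9 and Hbb-bt at 9.61, 10.9 and 11.2.

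**Figure D4:**
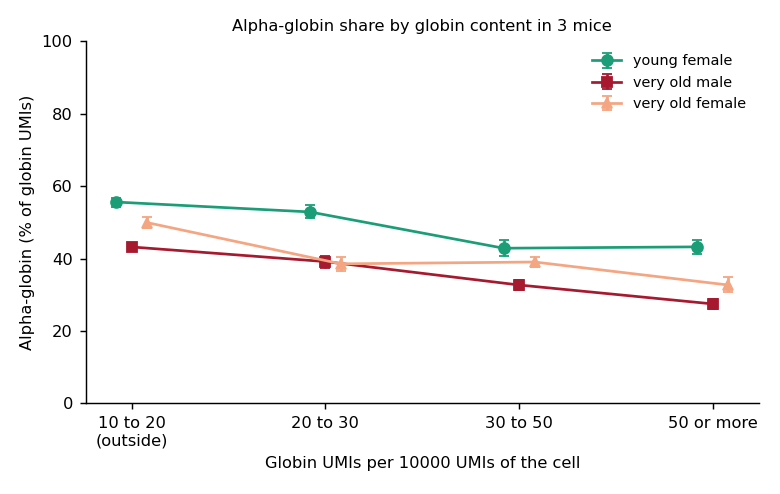
Points give α-globin as a percent of globin UMIs in cells of rising globin content (UMIs per 10000). The mice are the young female, very old male and very old female, with 95% exact Clopper-Pearson intervals over UMIs. The intervals leave out the spread between cells. The share at 50 or more is lower than at 20 to 30 in each mouse (43.2% against 52.9%, 27.5% against 39.2%, and 32.7% against 38.5%).

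The ages could be compared by gene only for very old against young, and only with 2 mice against 1, because the other libraries held 0 to 3 later cells. This rests on 1 young mouse, a female, and 2 mice of another library series, with 1 residual degree of freedom. Summed later cells held 2185935, 2994787 and 2385229 UMIs. edgeR's quasi-likelihood test called 0 of 8464 genes (0%) at a Benjamini-Hochberg adjusted p under 0.05. At an unadjusted p under 0.05 there were 723 genes (8.54%), and DESeq2's Wald test called 0 with 48 at that limit. The smallest adjusted p of edgeR was that of Dhx9, an RNA helicase, at 62.9 in the young female and 130 and 110 in the very old mice (log2 0.98 ± 0.16 SE, adjusted p = 0.0593). Together with the early erythroid cells of all 8 mice in 1 fit, edgeR called 0 of 13143 genes, and 1086 had an unadjusted p under 0.05. That joint fit had a sex term but no mouse term, so later and early sums of the same mouse counted as independent. A p above the limit does not show that the later cells were alike at the 2 ages.

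A larger part of the G2 and M phase genes than of all genes lay above the young female in both very old mice. Both very old mice lay above the young female for 35 of 52 genes and below it for 7, where all genes gave 29.9% above and 41.1% below. The median log2 difference was 0.26 against 0.00 over all genes, and none was called by edgeR after adjustment. The 4 most abundant members were Hmgb2 (2558, 2471 and 2704), Tubb4b (1256, 1151 and 1015), Mki67 (615, 720 and 757) and Cks2 (538, 745 and 721). For Hmgb2 the young female lay between the very old mice, Tubb4b was lower in both of them, and Mki67 and Cks2 were higher in both. Of the 51 genes of the list at 10 CPM or more, 34 were above in both very old mice in later cells (median 0.19), and a count of 34 was above in early cells (median 0.09), where all genes gave 27.1% above, 49.2% below and a median of -0.04.

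Heat shock genes lay on the other side. Of 16 genes 12 were below the young female in both very old mice and 1 above, with a median of -0.23 and none called by edgeR. Hspa8, a constitutive chaperone, was at 3062, 2022 and 2170, and Hsp90ab1 at 3253, 2492 and 2724. Hsp90aa1 was at 2282, 2186 and 2066, and Hspe1 at 981, 1004 and 964. Medians over genes at 10 CPM or more in this paragraph are again from the log2 of CPM plus 1, not from edgeR. By that measure early cells had a median of -0.14 against -0.25 in later cells over 15 heat shock genes. In later and in early cells alike, 11 of these 15 were below the young female in both very old mice. Against 41.1% of all genes below in both very old mice, heat shock had 75.0%, glycolysis 71.4% (10 of 14, median -0.19), haem synthesis 68.8% (11 of 16, median -0.08) and S phase 62.8% (27 of 43, median -0.04). The unfolded protein list, at 55.6% (10 of 18, median -0.18), was nearer to that background. Over genes at 10 CPM or more, early cells had 73.3% of heat shock, 78.6% of glycolysis and 58.1% of S phase genes below. They had 46.7% of haem synthesis and 66.7% of unfolded protein genes below, against 49.2% of all genes. DNA methylation and Polycomb genes were above in 9 of 18, or 50.0% against 29.9% of all genes (median 0.25). Among them were Ezh2 at 208, 236 and 247, Dnmt1 at 131, 176 and 162 and Suz12 at 97.3, 160 and 143. Uhrf1, at 120, 110 and 108, was below. Of the 13 genes of this list at 10 CPM or more, 7 were above and 2 below in later cells (median 0.21). In early cells 6 were above and 5 below (median -0.01).

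**Figure D5:**
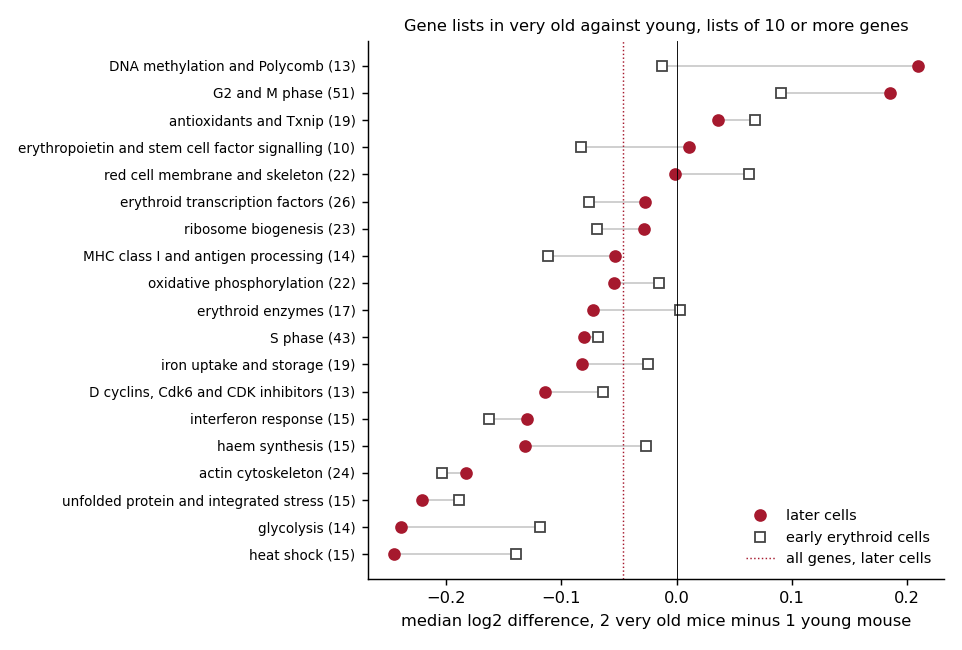
Circles give the median log2 difference of later cells (mean of 2 very old mice minus 1 young female) for each list with 10 or more genes, squares the same in early erythroid cells, and the dotted line the median of all genes in later cells. G2 and M phase stands at 0.19 in later and 0.09 in early cells, and heat shock at -0.25 and -0.14.

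With the globin limit at 10, which brings in cells that are not later cells by the rule, the same 3 mice held 188, 211 and 218 cells. The comparison is again of 2 very old mice of their own library series with 1 young mouse. edgeR then called 175 of 9798 genes, 101 (1.03%) higher and 74 (0.755%) lower in very old mice. Of the 52 genes of G2 and M phase 10 were called higher and none lower in these very old mice: Kif11 (log2 0.76, adjusted p = 6.05e-07), Ube2c (0.64), Kif23, Ckap5, Anln, Nusap1, Cks2, Tpx2, Cdk1 and Hmmr. Kif11 drives spindle poles apart and Ube2c feeds the anaphase-promoting complex. Genes of the rule were also among those called, with Hbb-bs (log2 0.63) and Car1 (0.52) higher and Pf4 (-1.25) lower. Their values are not independent of the choice of cells. Of 18 heat shock genes 2 were called lower, Hsph1 (log2 -0.70) and Hspa8 (-0.45), and of 24 actin genes 3, Coro1a, Vim and Arhgdib. S phase genes gave 2 called higher (Atad2 and Wdr76) and 1 lower (Ung) of 43.

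Whether the age difference was another in later than in early erythroid cells was tested by the interaction of stage and age, with the mouse as a block (6 sums of 3 mice, 1 residual degree of freedom). edgeR called 7 of 12665 genes (0.0553%), and 556 had an unadjusted p under 0.05. They are Cd74, H2-Aa and H2-Eb1 of MHC class II, Furin, Jun, Arl6ip1 and Malat1. The 3 class II genes rested on few cells. Cd74 had 27 UMIs in the later cells of the young female, 19 of them in 1 cell, and 3 and 1 in the very old mice. In early cells of the very old male 229 of 617 Cd74 UMIs, and in those of the very old female 114 of 180, came from 1 cell each. Those 2 cells were rich in other-lineage markers. Without all such cells, later and early, the interaction of Cd74, H2-Aa and H2-Eb1 lay between -3.69 and -2.83 on the log2 scale, with adjusted p by edgeR of 0.288, 0.814 and 0.615. The young later cell with 19 Cd74 UMIs was not among the cells left out.

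The other 4 kept an adjusted p under 0.05 without those cells, but of the 4 only Malat1 kept it with the globin limit at 10, at 50 and in cells thinned to 5000 UMIs. There Furin, Jun and Arl6ip1 had edgeR adjusted p of 0.537 to 1. The log2 interaction of Furin was -0.79 with globin from 10 and -0.44 with globin from 50, that of Arl6ip1 0.37 and 0.23, and that of Jun 1.11 and 1.84. In thinned cells it was -1.16 for Furin, 0.79 for Arl6ip1 and 1.46 for Jun. Arl6ip1 also missed the limit with the globin genes left out (adjusted p = 0.0615). Furin, a protease that activates secreted proteins, was at 21.6 in later cells of the young female and 4.69 and 5.47 in the very old mice, against 17.9, 13.7 and 11.7 in early cells (interaction log2 -1.61 ± 0.36 SE, edgeR adjusted p = 0.0135). It was detected in 39.1%, 16.1% and 12.5% of later cells, and 17 of its 47 UMIs in the young female came from 1 cell. Jun was at 23.4, 23.5 and 14.7 in later and 31.7, 10.3 and 10.4 in early cells (1.35 ± 0.26, adjusted p = 0.000587). Arl6ip1, a membrane protein of the endoplasmic reticulum, was at 132, 182 and 216 in later and 138, 144 and 148 in early cells (0.50 ± 0.12, adjusted p = 0.0317). Malat1, a nuclear non-coding RNA, was at 2435, 2003 and 2400 in later and 3070, 2025 and 2186 in early cells (0.39 ± 0.07, adjusted p = 0.000281). With 1 young mouse, none of these can be told apart from a difference of that mouse.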

How the data were processed

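The deposited values are raw UMI counts of each gene in each called cell, not normalized, which the authors made with Cell Ranger and mm10, per the labels. The deposited headers name version 6.0.0, and the paper's methods name another. The sample labels and the series text name different chemistry kits. Libraries held 83062003 to 150135029 UMIs in 6459 to 8866 barcodes. Later cells and the gene lists (627 of 632 listed genes found) were chosen with earlier results of these data known. No doublets were removed. Counts were summed per mouse, since cells are not replicates. The paper names MAST for differential expression, and expression averaged per mouse for its test of group separation. The sums were tested with edgeR 4.0.16 (TMM, filterByExpr, quasi-likelihood with robust = TRUE) in R 4.3.3, with DESeq2 1.42.0 as an alternative. A fit of all 8 mice with age and sex was planned, but 5 libraries held 0 to 3 later cells, so only 3 libraries entered, without a sex term. The planned comparisons of middle-aged, of old, of old and very old together, and of females with males gave no value. The scripts were tested on simulated data. Folds use CPM (scaled to 1000000 non-globin UMIs) plus 1, and coordinates and sequences come from GENCODE vM21 and RefSeq (GRCm38.p6). Shares were compared by exact permutation over mice. Named genes are those of the rule, the list members with the highest mean level (called ones first, up to 4 a list), all genes called in sets of 7 or fewer, and others said to be chosen afterwards, except that some members are not reported here. Alternatives covered normalization, test, low-count filter, globin genes, globin and UMI limits, depth, mitochondrial share, other-lineage markers and leaving out mice.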

Additional observations from a re-analysis of the deposited data

How the results depend on the processing

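In the share comparisons of old and very old against young mice, the other alternatives kept the sign. Leaving out each mouse in turn moved the difference from -0.199 to 0.706 percentage points over all cells and from -0.446 to 2.49 over erythroid cells, and without the young male both were negative. For very old against young genes, edgeR called 42 with no filter on low counts, 175 with globin from 10 and 11 with globin from 50 per 10000, against 0 in the report and in the 8 other alternatives, whose unadjusted p fell under 0.05 for 48 to 1086 genes. For the interaction, with 7 calls, edgeR called 13 with DESeq2 size factors, 2 with globin from 10, 3 with globin from 50 and 3 with cells thinned to 5000 UMIs, and of the 7 genes only Malat1 was called in each of these alternatives. The cause was not tested. The joint fit with early cells and the one without cells rich in other-lineage markers for the interaction were added after seeing the data, as was the limit to 3 libraries. Leaving out a mouse left no residual degree of freedom, so no gene test was made, and those that need old or middle-aged mice, a sex term, the first library series alone or age in weeks were not run. The labels carry no replicate numbers, so none served as a block. The interaction had the mouse as its block, and the share comparisons were not blocked by sex. The gene comparisons rest on 64 to 88 later cells in each of 3 mice, and how far this limits them was not tested.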
